A study of Mus musculus with 6 samples.

Results

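Selective autophagy is the delivery of chosen cargo to the lysosome, and the genes described here encode the receptors that pick the cargo and the ATG8 proteins that hold the receptors on the growing membrane. The set has 10 members, chosen by gene name, of the 17110 genes in the authors' deposited comparison of sorted mouse embryonic stem cells. The members are 6 receptors (Calcoco2, Calcoco1, Sqstm1, Nbr1, Optn and Tax1bp1) and 4 ATG8 proteins (Map1lc3a, Map1lc3b, Gabarapl1 and Gabarapl2). All 10 had a row in the comparison, and the identifiers of all 10 were also present in the deposited counts table.

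The cells were of the embryonic stem cell line TG2A and carried a fluorescent protein under MERVL, an endogenous retrovirus active in the early mouse embryo and, in culture, in rare embryonic stem cells. Fluorescence-activated cell sorting gave a MERVL::DsRed2+ group and a MERVL::DsRed2- group, with 3 samples in each, collected on different dates. Both groups carried the reporter and were grown with 15% serum and 25 ng/mL leukemia inhibitory factor, and no sample came from cells without the reporter. The reporter marks cells by activity of one retroviral promoter, and all samples share the single line. The labels call the replicates biological. Polyadenylated RNA was sequenced as paired reads of 150 bases.

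The comparison is known only through 1 fold change per gene. Neither the groups compared nor the reference is named in the table, so every sign below is the sign as deposited, and which sorted group a positive value favours is not stated. That the table compares the sorted groups follows from the labels, where no other group is listed. Values per sample are not given here, because the 6 columns of the counts table carry run and barcode numbers that match no sample label. Depth per library and the spread between replicates were therefore not analysed, and the error of each value is the authors' standard error (SE). Because the members were proposed with this comparison in view, their fold changes and p-values describe them and test nothing.

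As a check on the labelled cell type, 9 of 10 embryonic stem cell markers had a row in the authors' deposited table, with mean normalized counts from 1260 to 38163. None of the 18 listed markers of two-cell-like cells was among the rows used, and those genes were not analysed here. Of the stem cell markers in the authors' deposited table, 6 of 9 were positive and past the threshold used throughout, an adjusted p-value under 0.05. Trophectoderm markers were negative past that threshold for 5 of 7 genes in the authors' deposited table, fibroblast markers for 5 of 7 and primitive endoderm markers for 1 of 5. The median log2 fold changes of the marker lists in the authors' deposited table were 0.73 for stem cells, -3.96 for trophectoderm, -1.67 for fibroblasts and -0.88 for primitive endoderm. Among the defining markers of the last list, Gata4, Gata6, Pdgfra and Sox7 had mean normalized counts under 15, the largest being 14.7, in the authors' deposited table. Gata3 of the trophectoderm list and Col1a2 of the fibroblast list were as low, at 13.7 and 10.1 in the authors' deposited table. Col1a1, whose value is the fibroblast median, had a mean of 20.9. The markers thus move along the same comparison as the genes below, and their part in those values was not tested. In bulk samples, fewer cells of a type and less RNA per cell cannot be told apart.

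A selective autophagy receptor binds cargo, often through ubiquitin, with one part of the protein and binds an ATG8 protein on the phagophore with another. ATG8 proteins fall into the LC3 and the GABARAP subfamilies, are joined to lipid in the membrane, and are degraded with the cargo when the autophagosome fuses with a lysosome. The receptors themselves are carried along, so the protein level of a receptor depends on autophagy as well as on its mRNA. Only mRNA was measured here.

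Calcoco2 stood far apart from the other members. Calcoco2 (ENSMUSG00000006056), also called NDP52, encodes a protein of the CALCOCO family whose human form is a receptor for ubiquitin-coated bacteria and damaged mitochondria. The authors' deposited table gives it a log2 fold change of 3.10 (SE 0.14, DESeq2 adjusted p-value 3.28e-107). On a linear scale this is 8.57-fold, and the authors' standard error gives a 95% interval from 7.10-fold to 10.3-fold. Over all libraries its mean normalized count in the authors' deposited table was 536. If that mean is taken over 2 groups of equal size fitted with no other term, which the table does not state, the fold change implies group means of 960.0 and 112.0. Both would be well above the lowest mean of any row, 5.58, so the fold change would not rest on a group near 0.

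Across all genes of the authors' deposited table, Calcoco2 had the 143rd most positive log2 fold change and the 6th largest Wald statistic in size (22.4), the fold change divided by its standard error. Among the 11381 genes with a mean normalized count of at least 100, it was 29th from the top. The genes closest to it in that order were Rex2 and Gm56738 above, at 3.27 and 3.21 in the authors' deposited table, and Mapt and Gm10323 below, at 3.09 and 3.07. Rex2 encodes a zinc-finger protein and Mapt the microtubule protein tau. Of these, Rex2 had an SE of 0.15 in the authors' deposited table, close to that of Calcoco2, and the other 3 had standard errors from 0.25 to 0.34. The order of the 5 genes is within their errors. Likeness across samples was not analysed here.

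**Figure D1:**
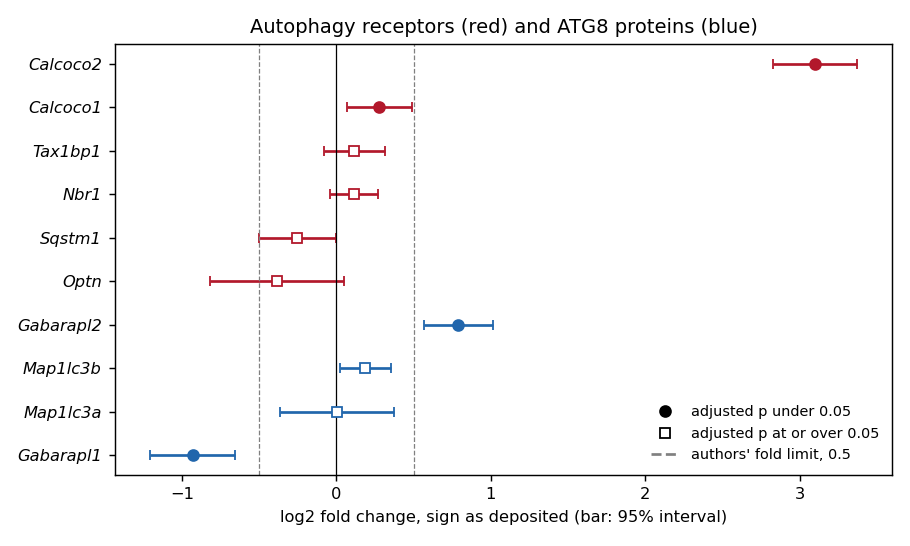
Log2 fold change of each member with the sign as deposited (horizontal axis), receptors in red and ATG8 proteins in blue; bars are 95% intervals and dashed lines mark the authors' limit of 0.5. Calcoco2 lies at 3.10, Gabarapl2 at 0.79 and Gabarapl1 at -0.93, and the other 7 members lie between -0.39 and 0.28.

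Of the 10 members, 4 passed the threshold in the authors' deposited table, 3 positive and 1 negative, where 30.5% of all genes did. The shares of all genes in the authors' deposited table were 14.6% for positive and 15.9% for negative values. Adding an absolute log2 fold change over 0.5, as the authors did for their own calls, left Calcoco2 and Gabarapl2 as up and Gabarapl1 as down. Of all genes in the authors' deposited table, 9.40% were called up and 12.1% down in this way, 21.5% in all. In the authors' deposited table, the 10 members had a median log2 fold change of 0.11 and all genes one of 0.0097.

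None of the other 5 receptors passed the authors' fold limit. Calcoco1 (ENSMUSG00000023055), the paralog of Calcoco2 and a receptor for endoplasmic reticulum and Golgi membranes, stood at 0.28 on the log2 scale in the authors' deposited table (SE 0.11, DESeq2 adjusted p-value 0.0337). This 1.21-fold difference had an interval from 1.05-fold to 1.40-fold, which excludes a change of the size seen for Calcoco2. When the fold changes were centred on ribosomal protein genes, Calcoco1 was at 0.19 and no longer past the threshold (adjusted p-value 0.191 from the shifted Wald statistic, with alternatives from 0.0301 to 0.191).

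Tax1bp1 (ENSMUSG00000004535), the third protein of the Calcoco family and a receptor for protein aggregates and ferritin cargo, was at 0.11 in the authors' deposited table (SE 0.10, DESeq2 adjusted p-value 0.434). Its interval ran from -0.083 to 0.31. Neither relative of Calcoco2 had a fold change near 3.10.

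Sqstm1 (ENSMUSG00000015837) encodes p62, which gathers ubiquitinated proteins into condensates, and Nbr1 (ENSMUSG00000017119) encodes its partner in that process. Sqstm1 was at -0.25 in the authors' deposited table (SE 0.13, DESeq2 adjusted p-value 0.120). Nbr1 stood at 0.11 in the authors' deposited table (SE 0.078, DESeq2 adjusted p-value 0.300). These partners had opposite signs, but neither was distinguishable from 0 at the threshold. Centring on ribosomal protein genes moved Sqstm1 to -0.35 and past the threshold (adjusted p-value 0.0230, with alternatives up to 0.120). Optn (ENSMUSG00000026672), a receptor for mitochondria and bacteria that the kinase TBK1 phosphorylates, was at -0.39 in the authors' deposited table (SE 0.22, DESeq2 adjusted p-value 0.187). Its interval, -0.82 to 0.047, was the widest of the 10 and leaves room for a change past the authors' limit.

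The ATG8 members were split within the GABARAP subfamily. In the authors' deposited table, Gabarapl2 (ENSMUSG00000031950), which encodes GATE-16, was at 0.79 (SE 0.11, DESeq2 adjusted p-value 1.26e-10). On a linear scale Gabarapl2 differed by 1.73-fold (95% interval 1.48 to 2.02). In the authors' deposited table, Gabarapl1 (ENSMUSG00000030161), a close relative that was also named GEC1, was at -0.93 (SE 0.14, DESeq2 adjusted p-value 8.39e-10). The group that was higher for Gabarapl2 was therefore lower for Gabarapl1, by 1.91-fold (95% interval 1.57 to 2.31). Under the same condition as for Calcoco2, the implied group means were 3474 and 2011 for Gabarapl2 and 811 and 1546 for Gabarapl1. Gabarap, the founding member of that subfamily and outside the set, was at -0.19 in the authors' deposited table (SE 0.096, DESeq2 adjusted p-value 0.122).

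The LC3 members did not share these shifts. Map1lc3b (ENSMUSG00000031812), whose lipid-bound form is the usual marker of autophagosomes, was at 0.19 in the authors' deposited table (SE 0.085, DESeq2 adjusted p-value 0.0821). Its unadjusted p-value of 0.0279 in the authors' deposited table was under 0.05, and its interval reached from 0.020 to 0.35. Map1lc3a (ENSMUSG00000027602) was at 0.0065 in the authors' deposited table (SE 0.19, DESeq2 adjusted p-value 0.984), a value whose sign turned under both centrings. The interval of Map1lc3a, -0.36 to 0.38, lies inside the authors' limit on both sides.

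The promoters of Gabarapl1 and Gabarapl2 are shown because these members of one subfamily had opposite signs. RefSeq promoter windows (build GRCm38.p6) were matched by symbol for 8 of 10 members, and Calcoco2 and Map1lc3a had no entry. Each sequence gives the 250 bases before the annotated start, 5′ to 3′ on the gene's strand, and capitals mark GGGCGG on either strand, the GC box bound by Sp factors. Gabarapl1 lies at chr6:129532942-129533191 and Gabarapl2 at chr8:111940453-111940702, both on the plus strand.
Gabarapl1: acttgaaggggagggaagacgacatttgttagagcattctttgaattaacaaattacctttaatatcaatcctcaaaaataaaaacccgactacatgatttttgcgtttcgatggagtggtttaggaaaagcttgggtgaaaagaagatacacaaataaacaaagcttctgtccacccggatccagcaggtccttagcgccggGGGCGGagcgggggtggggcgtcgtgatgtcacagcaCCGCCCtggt
Gabarapl2: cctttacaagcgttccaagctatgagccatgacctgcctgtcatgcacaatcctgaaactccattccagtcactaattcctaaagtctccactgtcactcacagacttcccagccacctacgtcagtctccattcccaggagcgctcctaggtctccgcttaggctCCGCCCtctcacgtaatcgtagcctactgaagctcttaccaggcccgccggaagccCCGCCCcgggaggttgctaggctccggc
Both windows held 2 GC boxes, and 46.8% of the bases were G or C for Gabarapl1 against 57.2% for Gabarapl2. A GC box was present in 6 of the 10 windows of members, where 32.7% of all 32851 windows held one. The hexamer CACGTG, which TFEB and MITF bind, was found in 0 of the 10 windows of members and in 6.02% of all windows. These counts describe letters in a short window and say nothing of binding.

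**Figure D2:**
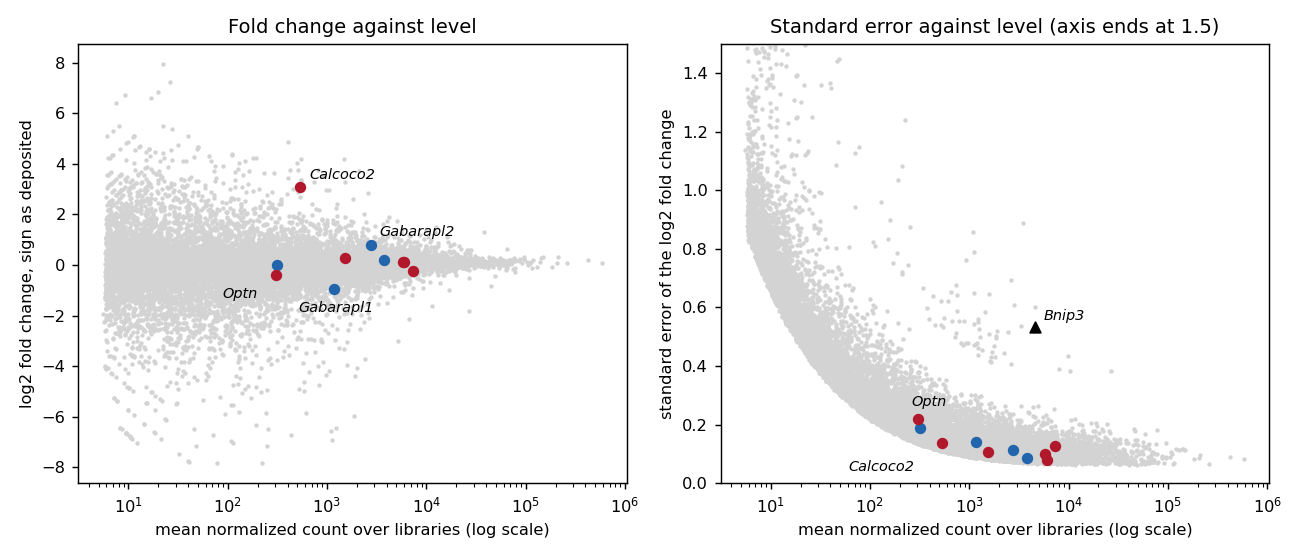
Left, log2 fold change (sign as deposited) against the mean normalized count on a log axis; right, standard error against the same mean, where the axis ends at 1.5 and 23 genes above it are not shown; grey points are the genes of the table, red the receptors, blue the ATG8 proteins and the black triangle Bnip3. Calcoco2 lies above the bulk of genes of its level, its standard error of 0.14 lies within it, and Bnip3, with a standard error of 0.53, lies far above it.

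The members covered a wide range of levels. Their mean normalized counts in the authors' deposited table ran from 308 for Optn to 7259.9 for Sqstm1, with a median of 2135. To compare levels between genes, each mean was divided by the length of the longest GENCODE M21 transcript. Per kilobase, Sqstm1 was highest at 2716, followed by Gabarapl2 at 1635, Tax1bp1 at 1372, Nbr1 at 1253 and Map1lc3b at 914. Gabarapl1 followed at 648 per kilobase and Calcoco1 at 515. The lowest were Calcoco2 at 331, Map1lc3a at 285 and Optn at 118 per kilobase, while the median of all genes with a length was 132. Calcoco2 was thus among the less abundant receptors when averaged over both groups. The means carry no error in the table, so neighbours in this order cannot be separated, and the longest transcript need not be the one expressed.

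The standard error of a gene depends on its count and on the spread between libraries. For Calcoco2, the 1283 other genes within 1.25-fold of its mean in the authors' deposited table had a median standard error of 0.15, and 35.9% of them had a smaller one. For Gabarapl2 and Gabarapl1, 58.2% and 71.4% of such genes had a smaller standard error. Optn and Sqstm1 were more variable than most, with 78.3% and 78.7%, whereas Nbr1 was among the steadier genes, with 11.1%. No member's standard error lay outside the range of genes of its level.

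Along chromosome 11, the nearest gene with a row on each side of Calcoco2 had the sign of Calcoco2. The order of genes was taken from RefSeq, to which 15817 of the 17110 genes were matched by symbol, and the unmatched genes have no place in it. On one side came Atp5mc1, encoding subunit c of the mitochondrial ATP synthase, at 0.68 in the authors' deposited table (SE 0.16, DESeq2 adjusted p-value 0.000156). Beyond it, Ube2z was at -0.080 in the authors' deposited table (SE 0.096, DESeq2 adjusted p-value 0.591). On the other side came Ttll6, encoding a tubulin glutamylase, at 1.19 in the authors' deposited table (SE 0.31, DESeq2 adjusted p-value 0.000663). Beyond it, Hoxb13, whose mean count was only 9.59, was at -1.13 in the authors' deposited table (SE 0.81, DESeq2 adjusted p-value 0.319). The third gene with a row on that side, Gm53, was at 0.79 in the authors' deposited table (SE 0.32, DESeq2 adjusted p-value 0.0477), with 6 RefSeq genes between it and Calcoco2. On the side of Atp5mc1 the third was Snf8, at 0.018 in the authors' deposited table (SE 0.093, DESeq2 adjusted p-value 0.913). Of these 6 genes, 3 therefore passed the threshold with the sign of Calcoco2, at values below that of Calcoco2. Of all genes in the authors' deposited table, 14.6% passed it with a positive value. Whether these few genes differ from that share was not tested.

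Calcoco2 and Ttll6 lie head to head, on opposite strands. In GENCODE M21 their gene bodies are 21.8 kb apart. In RefSeq, Calcoco2 starts 12.6 kb and Ttll6 9.33 kb further upstream, so that the models overlap by 104 bases at their starts. Which of these models the authors counted is not given in the sources used here. If reads near the shared start were assigned without strand, they could have gone to either gene. That part was not tested.

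**Figure D3:**
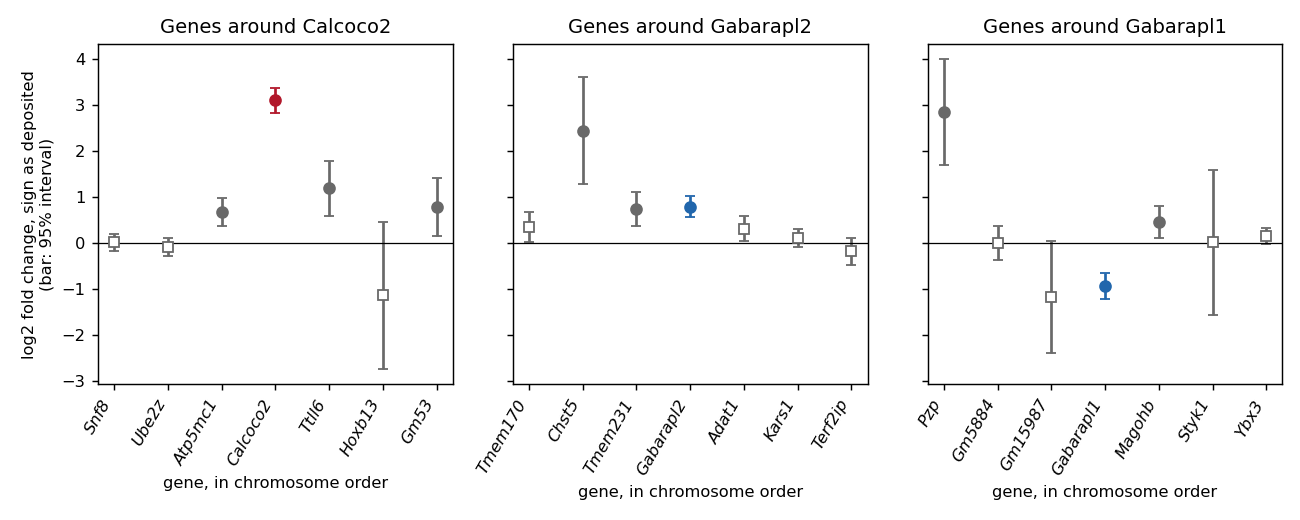
Log2 fold change (vertical axis, sign as deposited) of the 3 genes with a row on each side of Calcoco2, Gabarapl2 and Gabarapl1, in chromosome order; bars are 95% intervals and filled points have an adjusted p-value under 0.05. Atp5mc1 and Ttll6 beside Calcoco2 and Tmem231 beside Gabarapl2 are positive, at 0.68, 1.19 and 0.74. Of the other nearest genes, Adat1 beside Gabarapl2 (0.31) and Gm15987 beside Gabarapl1 (-1.17) are not filled. Magohb beside Gabarapl1 is filled, at 0.46, with the sign opposite to that of Gabarapl1.

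Around the other members the signs were mixed. Taking the nearest placed gene with a row on each side of the other 9 members, 7 of 18 such genes passed the threshold in the authors' deposited table, where 30.5% of all genes did, and 3 of them had the sign of the member. Tmem231, a gene of the ciliary transition zone next to Gabarapl2 on chromosome 8, was at 0.74 in the authors' deposited table (SE 0.19, DESeq2 adjusted p-value 0.000683). It was named after its value was seen. Gabarapl1 sits on chromosome 6 among genes of which most had no row used here, and 23 and 51 RefSeq genes lie between it and the nearest genes with a row in that order. Gm44243, which has no place in that order, lies within Gabarapl1 in GENCODE M21 and was at -1.64 in the authors' deposited table (SE 0.90, DESeq2 adjusted p-value 0.167), at a mean count of 6.81.

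Shared sequence could affect some of these values, which was not tested. Reads of one gene can be assigned to another where their transcripts are alike, so each member's GENCODE M21 transcripts were searched for runs of 50 bases that also occur in another gene. For Calcoco2, 10.2% of the runs occurred elsewhere, in the processed pseudogenes Gm11701 and Gm9697, neither of which had a row used here. For Gabarapl2 the share was 12.2%, all in 4 processed pseudogenes, of which Gm3724 had a row at 0.84 in the authors' deposited table (SE 0.51, DESeq2 adjusted p-value 0.224). For Gabarapl1, 23.1% of the runs lay on the opposite strand of 1700101I11Rik, and for Sqstm1, 15.5% lay on the opposite strand of Mrnip. Mrnip itself was at 0.071 in the authors' deposited table (SE 0.18, DESeq2 adjusted p-value 0.823). On the same strand, the gene body of Gabarapl1 overlapped Gm44243 by 692 bases and that of Map1lc3b overlapped Gm20388 by 8400 bases, in both cases with 0 bases of exon in common. No run was shared between Gabarapl1 and Gabarapl2, nor between Calcoco2, Calcoco1 and Tax1bp1. Nbr1 and Map1lc3a shared 0 runs with any gene, and the shares of the other members were 6.01% for Map1lc3b, 1.43% for Calcoco1, 1.11% for Tax1bp1 and 0.658% for Optn.

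A further 87 genes of the pathway, listed by role from general knowledge, set the members beside the rest of the machinery. In the authors' deposited table, 31 of the 87 were past the threshold, 13 positive and 18 negative, which is 35.6% against 30.5% of all genes. For the counts by role below, the shares of all genes were 14.6% positive and 15.9% negative. In the authors' deposited table, the median of these 87 log2 fold changes was -0.017. Centring on ribosomal protein genes changed the split to 9 positive and 25 negative genes, as it changed that of all genes from 2492 and 2719 to 1864 and 3508.

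Among other cargo receptors, for organelles, glycogen and aggregates, 3 of 19 were positive and 7 negative beyond the threshold in the authors' deposited table. Stbd1, which binds glycogen, was at -2.53 in the authors' deposited table (SE 0.31, DESeq2 adjusted p-value 7.57e-15), at a mean count of 69.4. Rtn3, a receptor for tubules of the endoplasmic reticulum, was at -0.59 in the authors' deposited table (SE 0.094, DESeq2 adjusted p-value 6.81e-09). Wdfy3, the large scaffold ALFY for aggregates, was at 0.60 in the authors' deposited table (SE 0.091, DESeq2 adjusted p-value 8.04e-10). Receptors of this kind thus moved in both directions, and 9 of 19 did not pass. The mitochondrial receptor Bnip3, named after its value was seen, was at -0.37 in the authors' deposited table (SE 0.53, DESeq2 adjusted p-value 0.663). That standard error exceeded those of 99.9% of the 801 other genes within 1.25-fold of its mean, 4548.

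Kinases that act on receptors, adaptors of these kinases and ubiquitin enzymes gave 1 positive and 2 negative of 9 in the authors' deposited table. Tank, an adaptor of the kinase TBK1, was at -0.87 in the authors' deposited table (SE 0.15, DESeq2 adjusted p-value 1.34e-07). Tbk1 itself did not pass and was at -0.20 in the authors' deposited table (SE 0.11, DESeq2 adjusted p-value 0.154).

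All 5 genes of the ULK complex, the kinase complex that starts autophagy, passed the threshold in the authors' deposited table, 3 positive and 2 negative. Of all genes in the authors' deposited table, 30.5% passed. Ulk2 was at -1.31 in the authors' deposited table (SE 0.36, DESeq2 adjusted p-value 0.00162), and its paralog Ulk1 was at 0.45 (SE 0.17, DESeq2 adjusted p-value 0.0264). Atg13 was at 0.40 in the authors' deposited table (SE 0.087, DESeq2 adjusted p-value 4.35e-05). Within the complex, only Atg13 and Ulk2 had an adjusted p-value under 0.01, and only Ulk2 passed the authors' fold limit. Like the GABARAP genes, the ULK1 and ULK2 paralogs had opposite signs. Both were more variable than most, as 94.9% (Ulk1) and 95.6% (Ulk2) of other genes within 1.25-fold of their means had a smaller standard error.

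**Figure D4:**
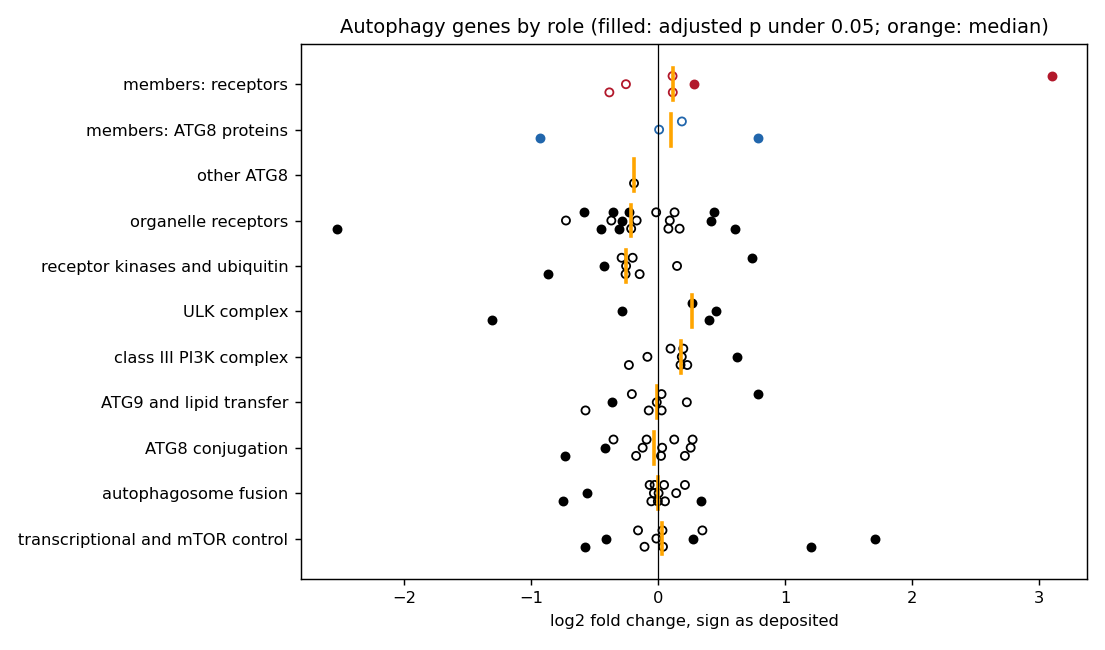
Log2 fold changes with the sign as deposited (horizontal axis) of the 10 members and 87 other autophagy genes, grouped by role; filled points have an adjusted p-value under 0.05 and orange bars mark medians. Calcoco2 at 3.10 is the most positive gene shown and Stbd1 at -2.53 the most negative, and the medians of the roles lie between -0.25 and 0.26.

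The class III phosphatidylinositol 3-kinase complex, which marks the membrane for growth, had 1 of 8 genes beyond the threshold in the authors' deposited table. That gene was Atg14, the subunit specific to autophagy, at 0.62 in the authors' deposited table (SE 0.12, DESeq2 adjusted p-value 1.32e-06). Of 9 genes for ATG9 and lipid transfer in the authors' deposited table, 1 was positive and 1 negative. Atg2a, which moves lipid into the membrane, was at 0.78 in the authors' deposited table (SE 0.11, DESeq2 adjusted p-value 2.79e-12). The genes listed for joining ATG8 proteins to lipid, not all of which encode enzymes of that step, gave 0 positive and 2 negative of 12 in the authors' deposited table. Atg16l2 was at -0.74 in the authors' deposited table (SE 0.16, DESeq2 adjusted p-value 5.16e-05).

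Fusion with the lysosome was represented by 13 genes, of which 1 was positive and 2 were negative beyond the threshold in the authors' deposited table. The SNARE proteins Stx17 and Vamp8 of the autophagosome and lysosome were at -0.75 and -0.56 in the authors' deposited table (SE 0.19 and 0.20, DESeq2 adjusted p-values 0.000559 and 0.0201). Among 11 genes of transcriptional and mTOR control in the authors' deposited table, 3 were positive and 2 negative. Tfeb and Mitf, transcription factors of one family whose targets include lysosomal and autophagy genes, were at 1.20 and 1.71 in the authors' deposited table (SE 0.13 and 0.18, DESeq2 adjusted p-values 9.46e-20 and 8.06e-19). Their relative Tfe3 was at -0.015 in the authors' deposited table (SE 0.096, DESeq2 adjusted p-value 0.933), and Foxo1 was at -0.57 (SE 0.11, DESeq2 adjusted p-value 5.02e-06). In no role with more than 1 gene did every gene pass the threshold in one direction.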

How the data were processed

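The submitters' processing notes name FastQC 0.12.1, Trimmomatic 0.39, STAR 2.7.11b, RSEM 1.3.3, DESeq2 1.45.3 and the build GRCm39, with no role or order. The model formula, annotation release, filters and strand setting are not given in the sources used here. Per the file headers, the table the authors deposited holds a mean normalized count (a signal pooled over libraries), a log2 fold change with its standard error on the log2 scale, a statistic, which is a score equal to the ratio of the 2 within 5.77e-07, a p-value, an adjusted p-value and a call. The deposited calls matched an adjusted p-value under 0.05 with an absolute log2 fold change over 0.5, with 0 exceptions. The 6 count columns that the authors deposited matched no sample label and were not used, and only gene identifiers were read from that table. The planned edgeR test could therefore not be run.

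Intervals are the fold change plus and minus 1.96 deposited standard errors (95%). Centred alternatives used p-values from the shifted statistic with Benjamini-Hochberg adjustment over 17110 genes (Python 3.11.15, scipy 1.17.1). The adjustment and the centring on the median of all genes were tested on simulated data, with a smaller share of changed genes than is called here. The centring on ribosomal protein genes was not tested in this way. Transcript lengths (16795 genes matched by identifier), shared runs and overlaps used GENCODE M21. It and RefSeq are on GRCm38, which differs from GRCm39, so positions are given only for printed promoters.

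The members and gene lists were chosen with earlier results of these data known. Named genes are the 10 members, the pathway genes with an authors' call or the smallest p-value of their role, the 2 genes with a row on each side of Calcoco2 along the chromosome, and the 2 nearest on each side in fold change among genes whose mean count reached 100. Tbk1, Ulk1, Tfe3, Mrnip, Gm3724, Bnip3, Tmem231, Gm53, Snf8, Adat1, Gm15987, Magohb and Gm44243 were named outside this rule after their values were seen. One gene of the pathway list that passed the threshold is counted in its group, and its values are not reported here.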

Additional observations from a re-analysis of the deposited data

How the results depend on the processing

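Of 50 values of members under an alternative, 45 kept their direction and side of the threshold, among them all those of Calcoco2, Gabarapl1 and Gabarapl2. Calcoco1, at 0.28 on the log2 scale (DESeq2 adjusted p-value 0.0337), lost its call when an adjusted p-value under 0.01 was required. It also lost its call when centred on ribosomal protein genes, where it stood at 0.19. Sqstm1 gained a call at -0.35 in that centring. Without a call, Map1lc3a turned to -0.0032 after centring on all genes and to -0.086 on ribosomal protein genes. The centring on ribosomal protein genes shifts every value by 0.093. With an absolute log2 fold change over 0.5, the 13 positive and 18 negative pathway genes became 6 and 8, and over 1 they became 2 and 2, which the limits themselves produce. For all genes, the 2492 positive and 2719 negative calls became 1609 and 2067 over 0.5, and 957 and 1315 over 1. Without a fold limit, pathway counts under the alternatives ranged from 9 to 15 positive and from 13 to 25 negative. Those of all genes ranged from 1847 to 2492 positive and from 2073 to 3508 negative, and the causes were not tested.

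No paired analysis was possible because no library of the counts could be tied to a replicate and the comparison gives only pooled values. For the same reason, other normalizations, other tools, filters on counts per library and fits leaving out a replicate were not run, so whether one library decides a value is not answered. Among the 10 members, Optn and Map1lc3a had the largest standard errors, 0.22 and 0.19, and the part of depth in them was not tested.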
